A study of Mus musculus with 13 samples.

Results

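The 10 genes of collagen modification and crosslinking were read in sorted cells of the newborn mouse cochlea: P4ha1, P4ha2, P4hb, Plod1, Plod2, Plod3, Serpinh1, Lox, Loxl1 and Loxl2. They were taken by gene symbol and are 10 of the 18038 genes on the array, each with 1 probe. P4ha2 was selected on its measured values, which an earlier reading of these arrays found low in hair cells, so the hair cell values below are a description with no test for any of the genes. The samples were 13 Illumina BeadChip arrays of total RNA from cochleae of C57BL6 mice aged 3 days that carry the Math1-nGFP reporter, in which nuclear green fluorescent protein follows the hair cell transcription factor Math1 (Atoh1). Cells were separated by flow cytometry into 5 populations.

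The hair cell population (HC, 4 arrays) was positive for Math1-nGFP. The CD271high population (3 arrays) was negative for the reporter and high for CD271, the neurotrophin receptor encoded by Ngfr, and the labels call these cells suspected cochlear macrophages. The BM population (1 array) was negative for the reporter, low for CD271 and negative for the epithelial marker CD326, and is labelled as cells from below the basilar membrane. The GER population (3 arrays), from the greater epithelial ridge beside the hair cells, was reporter-negative, CD271 low, CD146 high and CD326 positive. The DC population (2 arrays), labelled as Deiters' and Claudius cells, differed from GER in the gate by low CD146. Below, epithelial populations or arrays means GER and DC, after their CD326 gate. The HC label names no CD326 gate, so the term does not class HC as outside the epithelium. All 5 populations share the strain, the reporter and the age, and the reporter and surface gates are the only definition of the cells. The labels do not say whether replicates came from separate litters or pools, so the p-values measure the spread between these arrays, which may be technical.

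Collagen chains are hydroxylated on prolines and lysines in the endoplasmic reticulum before they fold into the triple helix. Prolyl 4-hydroxylase, built of a catalytic alpha subunit (P4ha1, P4ha2 or P4ha3) and the beta subunit P4hb, makes the hydroxyproline that keeps the helix stable at body temperature, and the collagen chaperone Serpinh1 (HSP47) holds the folded helix until export. The lysyl hydroxylases Plod1, Plod2 and Plod3 prepare the sites from which the secreted lysyl oxidases Lox, Loxl1 and Loxl2 form crosslinks outside the cell. In the cochlea, fibrillar collagens are laid down in the tectorial membrane, the basilar membrane and the spiral ligament. Several of the enzymes, P4ha1, P4ha2, Plod2 and Lox among them, are known targets of the hypoxia-inducible factors (HIF) in other tissues, and the hydroxylases use molecular oxygen.

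The 250 bases before the RefSeq start (assembly GRCm38.p6) were available for 6 of the 10 genes, and 4 are shown because P4ha2 carried the largest differences, Plod3 followed it most closely across arrays, and P4hb and Serpinh1 followed each other. Bases in capitals mark ACGTG or GCGTG, the core letters bound by HIF, on either strand, so that CACGT and CACGC are the same motifs read from the other strand. P4ha2 lies on chromosome 11 and its window is chr11:54100674-54100923, plus strand. Plod3 has chr5:136986769-136987018, plus strand. The P4hb window is chr11:120573254-120573503, minus strand, and that of Serpinh1 is chr7:99353240-99353489, minus strand. All are written 5′ to 3′ along the gene.
P4ha2: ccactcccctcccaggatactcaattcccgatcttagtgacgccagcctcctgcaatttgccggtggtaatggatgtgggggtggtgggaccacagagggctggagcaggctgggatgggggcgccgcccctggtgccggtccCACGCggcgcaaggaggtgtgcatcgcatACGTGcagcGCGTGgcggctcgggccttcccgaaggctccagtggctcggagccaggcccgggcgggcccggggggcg
Plod3: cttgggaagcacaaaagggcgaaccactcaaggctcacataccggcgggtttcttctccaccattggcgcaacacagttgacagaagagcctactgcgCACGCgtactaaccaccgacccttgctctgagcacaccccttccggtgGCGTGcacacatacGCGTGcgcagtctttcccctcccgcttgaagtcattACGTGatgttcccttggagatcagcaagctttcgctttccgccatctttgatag
P4hb: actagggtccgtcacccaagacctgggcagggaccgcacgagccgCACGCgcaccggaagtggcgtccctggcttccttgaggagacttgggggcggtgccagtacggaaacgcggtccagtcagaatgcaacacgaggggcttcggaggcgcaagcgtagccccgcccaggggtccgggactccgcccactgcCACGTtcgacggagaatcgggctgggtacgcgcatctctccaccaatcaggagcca
Serpinh1: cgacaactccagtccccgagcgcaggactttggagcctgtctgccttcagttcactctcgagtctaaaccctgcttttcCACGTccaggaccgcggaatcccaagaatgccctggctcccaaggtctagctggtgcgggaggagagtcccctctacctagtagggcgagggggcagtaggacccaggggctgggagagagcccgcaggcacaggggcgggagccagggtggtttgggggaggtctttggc

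Both motifs stood in the P4ha2 window (ACGTG at -78, GCGTG at -107 and -69, counted in bases from the start), in the Plod3 window (ACGTG at -54, GCGTG at -152, -104 and -90) and in the P4hb window (ACGTG at -56, GCGTG at -205). The Serpinh1 window held ACGTG at -171 and no GCGTG. Of the windows not shown, that of P4ha1 held both motifs (ACGTG at -16, GCGTG at -163 and -126). That of Plod1 held GCGTG at -20 and no ACGTG. Among 32851 upstream windows of the same length, 16.6% held ACGTG, 28.2% held GCGTG and 6.1% held both. A match is a description of letters and not a site of binding.

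Values are log2 levels after background correction and quantile normalization, and a level is compared between populations for 1 probe, never between probes. A probe was called detected on an array when its detection p against negative control beads was under 0.01. Of the 10 genes, 9 were detected on all 13 arrays and passed the filter for testing. Loxl2, a lysyl oxidase of basement membrane collagen (chr14:69608692-69695834), was detected on 0 of 13, with raw signals of 194.6 to 271.0 and detection p-values of 0.0451 to 0.481, and it was not tested. The other genes rested on 19 to 64 beads per array. Per array 40.2% to 45.2% of probes were detected, the number of arrays limits the precision, and replicates of a population correlated at r = 0.959 to 0.987 over the genes tested.

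The labels were set against marker genes. Hair cell markers were detected 10 of 10 in HC, with summed linear signals of 150000 to 157000, against 7020 to 10100 in GER and 10400 to 10600 in DC. Of 7 ridge markers tested, 0 were higher in GER than in DC at an adjusted p under 0.05. Fst was lower in GER (-2.13, adjusted p = 0.0036), against the label. Crabp1 (2.21, adjusted p = 0.24), Epyc (1.02, adjusted p = 0.32) and Ptgds (0.52, adjusted p = 0.59) were higher in GER with no overlap of arrays. Otoa, Dcn and Tectb overlapped. Of all genes 31.9% had no overlap in either direction. All 7 ridge markers were detected in both. The Deiters and pillar markers summed to 18400 to 25100 in GER and 48000 to 54400 in DC, and 6 of the 8 tested were lower in GER. In CD271high all 12 macrophage genes tested were higher than in GER and DC (summed signals of 103000 to 120000, against 722 to 1030 in GER and 1320 to 2770 in DC). All 5 Schwann and satellite glia genes tested were higher there too (53600 to 80800 in CD271high, against 3560 to 4090 in GER and 2490 to 3020 in DC), with Foxd3 undetected everywhere. Ngfr itself averaged 9.01 in CD271high, against 9.82 in GER and 12.49 in DC, so its transcript ran against the gate. Mcam, the gene of CD146, followed its gate. It averaged 11.72 in GER and 10.12 in DC (difference 1.59, adjusted p = 0.0036). Atoh1 was dim, detected on only 2 of the HC arrays and undetected in the other populations. It averaged 6.83 in HC, 5.05 in GER and 5.08 in DC. BM held 11 of 12 mesenchyme markers, the glia list at a summed signal of 104000 and the endothelium list at 42400, so markers of several cell types were present together.

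**Figure D1:**
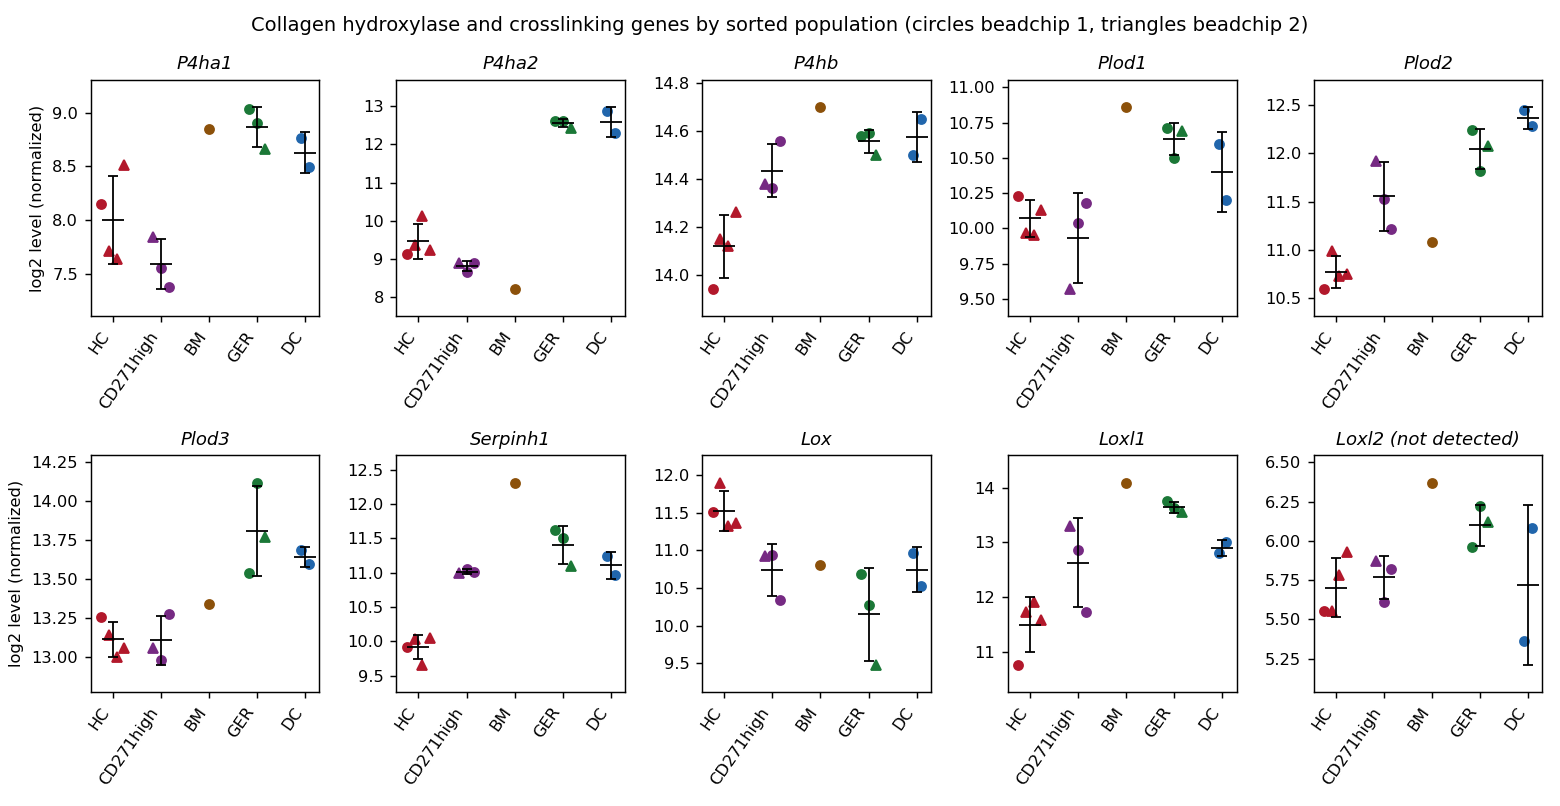
Log2 level of the 10 genes on each array, by population (HC, CD271high, BM, GER, DC). Points are arrays, circles on beadchip 1 and triangles on beadchip 2, and lines give the mean and SD where a population has more than 1 array. P4ha2 lies at 10.13 or below in HC, CD271high and BM, and between 12.30 and 12.86 in GER and DC, while Lox is highest in HC.

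Among the prolyl hydroxylase subunits, P4ha2 separated the populations most. P4ha2 (chr11:54100924-54131668) had log2 levels of 9.13, 9.38, 10.13 and 9.23 in HC, 8.90, 8.67 and 8.91 in CD271high, 8.22 in BM, 12.62, 12.60 and 12.43 in GER, and 12.86 and 12.30 in DC. The 8 HC, CD271high and BM arrays were low and the 5 GER and DC arrays high, with no overlap. In raw signal the range ran from 440 in BM to 7103 on DC replicate A. The order of means was DC and GER, whose arrays overlapped, then HC, CD271high and BM, each below the one before it with no shared range. In bulk RNA, fewer cells that express a gene and less RNA per cell cannot be told apart.

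Another catalytic subunit, P4ha1 (chr10:59323197-59373304), had levels of 8.15, 7.71, 7.64 and 8.51 in HC and 7.84, 7.56 and 7.38 in CD271high. It had 8.85 in BM, 9.03, 8.90 and 8.66 in GER, and 8.76 and 8.49 in DC. It was low in CD271high and high in GER, DC and BM, and HC replicate D reached the lower DC array. P4hb, the beta subunit, which is also the protein disulfide isomerase of many other secreted proteins (chr11:120560298-120573253), had 13.94, 14.15, 14.12 and 14.26 in HC and 14.38, 14.36 and 14.56 in CD271high. It had 14.70 in BM, 14.58, 14.59 and 14.50 in GER, and 14.50 and 14.65 in DC. All populations lay close together with HC lowest, and CD271high overlapped GER and DC. P4ha1 and P4ha2 thus differed in BM, where P4ha1 was within the range of the epithelial arrays and P4ha2 was at its lowest.

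The lysyl hydroxylases spanned a smaller range than P4ha2. Plod2, which hydroxylates the lysines of the collagen telopeptides (chr9:92539636-92608428), had 10.59, 10.99, 10.72 and 10.75 in HC, 11.92, 11.53 and 11.21 in CD271high, 11.08 in BM, 12.24, 11.82 and 12.08 in GER, and 12.45 and 12.29 in DC. HC was lowest, DC highest, and CD271high replicate A reached into the GER range. Plod3, which adds sugars to hydroxylysine as well as hydroxylating lysine (chr5:136987019-136996646), had 13.26, 13.14, 13 and 13.06 in HC and 13.06, 12.98 and 13.28 in CD271high. It had 13.34 in BM, 13.54, 14.12 and 13.77 in GER, and 13.69 and 13.60 in DC. The 8 HC, CD271high and BM arrays thus lay below the GER and DC arrays without overlap. Plod1, the lysyl hydroxylase of the helical part (chr4:147909753-147936776), ranged from 9.95 to 10.23 in HC, 9.57 to 10.18 in CD271high, 10.50 to 10.71 in GER and 10.20 to 10.60 in DC, with 10.86 in BM. HC and CD271high overlapped, and HC also reached the lower DC array.

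Serpinh1 (chr7:99345375-99353239) had 9.92, 10.04, 9.66 and 10.05 in HC, 10.99, 11.05 and 11.01 in CD271high, 12.31 in BM, 11.62, 11.51 and 11.09 in GER, and 11.24 and 10.97 in DC. BM was above all other arrays, HC below all others, and CD271high overlapped DC. Loxl1, a lysyl oxidase needed for elastic fibres (chr9:58287723-58313212), had 10.77, 11.73, 11.91 and 11.59 in HC, 13.30, 12.86 and 11.74 in CD271high, 14.09 in BM, 13.75, 13.63 and 13.55 in GER, and 12.80 and 13.01 in DC. It was highest in BM and next in GER, and CD271high was spread widely, from the HC range to above that of DC. Its residual SD, 0.444, was the largest of the 9 (median of all genes tested 0.26).

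Lox, the founding lysyl oxidase (chr18:52516060-52529867), ran the other way. It had 11.51, 11.90, 11.33 and 11.36 in HC, 10.93, 10.94 and 10.34 in CD271high, 10.81 in BM, 10.69, 10.28 and 9.48 in GER, and 10.96 and 10.53 in DC. All 4 HC arrays lay above all 9 others. BM lay within the ranges of CD271high and DC and above all 3 GER arrays, and CD271high overlapped both GER and DC. GER replicate C was the lowest array.

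Across the 13 arrays the levels of Lox correlated negatively with all 8 other detected genes (Pearson r from -0.71 with P4hb to -0.36 with P4ha1). P4hb and Serpinh1 (r = 0.89), Serpinh1 and Loxl1 (0.86), and P4ha2 and Plod3 (0.82) were the closest pairs. P4ha2 and Serpinh1 were hardly related (0.24). These values describe 13 arrays of 5 populations, which share the sort and the normalization, and carry no p.

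HC was set against the mean of GER and DC to describe the contrast from which P4ha2 came. P4ha2 averaged 9.47 ± 0.45 in HC (SD, n = 4), against 12.55 ± 0.10 in GER (n = 3) and 12.58 ± 0.40 in DC (n = 2), a log2 difference of -3.09 or 8.54-fold lower. Of the 9 genes, 6 were lower in HC with no overlap of arrays and 1 was higher. Over all 10088 genes, 20.3% were lower and 16.4% higher with no overlap (36.7% in either direction), and nothing is read from the members' count. Loxl1 was lower by -1.77, Plod2 by -1.44, Serpinh1 by -1.34, Plod3 by -0.62 and P4hb by -0.45. P4ha1 (-0.74) and Plod1 (-0.45) overlapped. Lox differed by 1.08 (2.11-fold higher in HC). The median of the 9 was -0.74, beside -0.09 over all genes.

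The arrays were on 2 beadchips. Within beadchip 1, with HC replicate A alone, the HC differences were -3.46 for P4ha2, -2.52 for Loxl1, -1.61 for Plod2, -1.41 for Serpinh1, -0.64 for P4hb and 0.89 for Lox. Within beadchip 2, with GER replicate C as the only array to compare with, they were -2.85 for P4ha2, -1.80 for Loxl1, -1.26 for Plod2, -1.17 for Serpinh1, -0.33 for P4hb and 2.05 for Lox. The signs were the same on both beadchips. The macrophage list summed to 12300 to 15000 in HC, against 722 to 1030 in GER and 1320 to 2770 in DC. Most of the HC sum was Laptm5 (mean level 13.48). Only Laptm5 (4.54) and C1qb (4.26) were higher in HC with no overlap. The other macrophage genes tested differed by 0 to 0.86 and overlapped. Of the 13 genes of that list 6, C1qa and Ptprc among them, were undetected in HC. The mesenchyme list summed to 16500 to 26800 in HC, against 46900 to 56600 in GER and 43300 to 50100 in DC. Most of the GER and DC sums came from Lum (14.76 in GER, 14.58 in DC) and Dcn (14.3 and 14.19). Dcn is also on the ridge list. With no overlap, Lum (-1.97), Dcn (-1.24) and Vim (-0.81) were lower in HC and Pdgfra (3) was higher. Of the endothelium markers, Egfl7 (1.11) was higher in HC with no overlap. Esam (3.09), Cldn5 (2.82), Cdh5 (1.22), Tek (1.20), Pecam1 (1.04) and Emcn (0.73) were higher in HC but overlapped. The part of these lists in the HC differences was not tested.

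GER and DC were compared to ask whether the epithelial populations differ in collagen modification, and no member passed. Of the 9 genes, 0 were higher and 0 lower at an adjusted p under 0.05 (limma with Benjamini-Hochberg adjustment over 10088 genes), where 4.16% of all genes passed in either direction, 0.892% higher in GER and 3.27% lower. P4ha2 differed by -0.03 ± 0.27 (log2, SE; 95% confidence interval -0.63 to 0.57; adjusted p = 0.99) and P4hb by -0.02 (-0.34 to 0.31, adjusted p = 0.99). All 9 of the 95% confidence intervals included 0, so 0 genes passed at an unadjusted p under 0.05 as well. Loxl1 was 13.75, 13.63 and 13.55 in GER and 12.80 and 13.01 in DC, a difference of 0.74 ± 0.41 without overlap of arrays (interval -0.15 to 1.62, adjusted p = 0.51). Plod2 was the other gene without overlap, lower in GER, and 31.9% of all genes had none in either direction. Lox differed by -0.59 ± 0.33 (-1.31 to 0.12, adjusted p = 0.51) and Plod2 by -0.32 ± 0.22 (-0.79 to 0.15, adjusted p = 0.64). P4ha1 (0.24), Plod1 (0.23), Plod3 (0.16) and Serpinh1 (0.30) had adjusted p-values of 0.61 to 0.85. Within beadchip 1 the 9 adjusted p-values were 0.32 to 0.99, and beadchip 2 held no DC array.

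CD271high was compared with the mean of GER and DC, which are the same GER and DC arrays as in the other comparisons. The difference takes no HC value, but the spread behind its error and p comes from all 13 arrays, HC included. P4ha2 was chosen from a contrast with these GER and DC arrays, so its difference and p here are not independent of that choice. The count and the median of the 9 below include P4ha2. Of the 9 genes, 5 were lower in CD271high and 0 were higher, where 18% of all 10088 genes were lower, 15.3% higher and 33.2% passed in either direction. They were the catalytic prolyl hydroxylase subunits P4ha1 and P4ha2 and all 3 lysyl hydroxylases. P4ha2 averaged 8.83 ± 0.14 in CD271high, against 12.55 ± 0.10 in GER and 12.58 ± 0.40 in DC, and was 13.3-fold lower (-3.74 ± 0.22, log2 and SE, adjusted p = 1.2e-07). P4ha1 was 2.22-fold lower (-1.15 ± 0.21, adjusted p = 0.0011). Plod2 was 1.57-fold lower (-0.65 ± 0.17, adjusted p = 0.013), Plod3 1.54-fold (-0.62 ± 0.15, adjusted p = 0.0071) and Plod1 1.5-fold (-0.59 ± 0.17, adjusted p = 0.016). The median of the 9 was -0.62, beside -0.09 over all genes. With only CD271high, GER and DC in the fit the same 5 genes passed (P4ha2 adjusted p = 3.4e-07, P4ha1 0.00054, Plod3 0.017, Plod2 0.024 and Plod1 0.032). With the authors' values P4ha1 differed by -0.67 (adjusted p = 0.00077), and by the same amount with no background correction.

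Serpinh1 (-0.24, 95% confidence interval -0.58 to 0.10, adjusted p = 0.27), P4hb (-0.13, -0.40 to 0.13, adjusted p = 0.45), Lox (0.29, -0.29 to 0.87, adjusted p = 0.44) and Loxl1 (-0.64, -1.35 to 0.08, adjusted p = 0.16) did not pass. The interval of P4hb excludes the size of the P4ha2 and P4ha1 differences. P4hb did pass when arrays were scaled by their median in place of quantiles (-0.65, adjusted p = 0.042), as did Loxl1 (-1.02, adjusted p = 0.011), and that scaling moved the median of all genes to -0.255. The macrophage and the glia markers rose in the same arrays. Of 9 mesenchyme markers 4 were higher and 1 lower, with Otor at 2.46 (adjusted p = 0.0017), Pdgfra at 0.98 (adjusted p = 0.00037) and Lum at -0.97 (adjusted p = 0.024). The list summed to 31100 to 35000 in CD271high, against 46900 to 56600 in GER and 43300 to 50100 in DC. Most of the GER and DC sums came from Lum and Dcn. Of 6 bone and cartilage markers 3 were higher and 0 lower, of 7 endothelium markers 1 was higher and 0 lower, and of 8 Deiters and pillar markers 0 were higher and 6 lower. Their part in the CD271high differences was not tested.

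P4ha2 held its call within beadchip 1 (-3.80, adjusted p = 2.8e-05). P4ha1 (-1.32, adjusted p = 0.0012), Plod2 (-0.83, adjusted p = 0.018) and Loxl1 (-0.99, adjusted p = 0.049) also passed there. Plod1 (-0.39, adjusted p = 0.16) and Plod3 (-0.61, adjusted p = 0.074) did not. The other 3 genes, P4hb, Serpinh1 and Lox, had adjusted p-values of 0.21 to 0.95 within beadchip 1. Within beadchip 2, 1 array stood on each side. The spread there came from the 3 HC arrays alone, the population on which P4ha2 was selected, so only sizes are given. P4ha2 differed by -3.53, Plod1 by -1.12, P4ha1 by -0.83, Plod3 by -0.71, Loxl1 by -0.25 and Plod2 by -0.16. Plod1 did not pass without CD271high replicate A (-0.41, adjusted p = 0.087) or DC replicate A (-0.49, adjusted p = 0.068), nor Plod2 without CD271high replicate C (-0.48, adjusted p = 0.065). Against GER alone Plod2 did not pass (-0.49, adjusted p = 0.075), and against DC alone Plod1 (-0.47, adjusted p = 0.12) and Plod3 (-0.54, adjusted p = 0.052) did not.

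**Figure D2:**
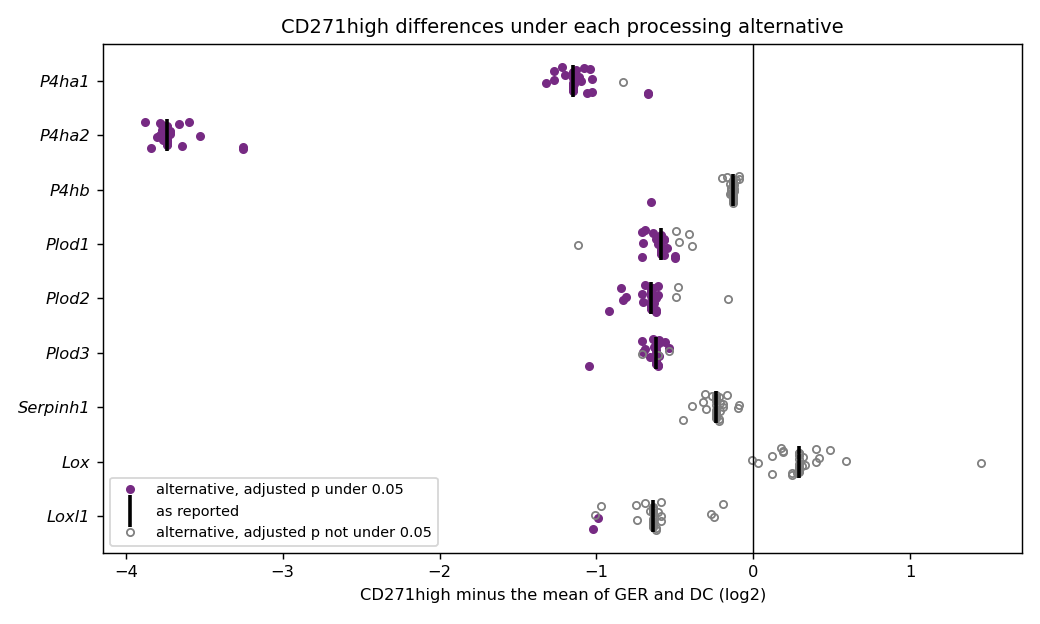
Difference of CD271high minus the mean of GER and DC (log2, x axis) for the 9 detected genes under each processing alternative. Filled points have an adjusted p under 0.05, open points do not, and the bar is the value reported. P4ha2 stays between -3.88 and -3.25 over the 31 alternatives. The fit within beadchip 2 has 1 array on each side, so whether its points are filled is not read. Outside that fit P4ha2 and P4ha1 are filled throughout, while Plod1, Plod2 and Plod3 each have open points.

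The single BM array was set beside GER and DC by value alone. P4ha2 was 20.3-fold lower in BM (-4.34) and Plod2 2.18-fold lower (-1.12), while Serpinh1 was 2.08-fold higher (1.06). These 3 lay outside the range of the 5 epithelial arrays by a difference of at least 1, which 12.5% of all genes did upward and 12.4% downward. Loxl1 (0.82), Plod1 (0.35) and P4hb (0.14) lay above that range by smaller differences and Plod3 (-0.39) below it (31.8% of all genes lay above by any difference and 33% below), while P4ha1 (0.10) and Lox (0.36) were inside. Within beadchip 1, which holds BM, P4ha2 differed by -4.37, Plod2 by -1.11 and Serpinh1 by 0.98. Against GER alone Serpinh1 differed by 0.91 and Plod2 by -0.96. The median of the 9 was 0.14, beside -0.02 over all genes. Of 9 mesenchyme markers tested, 8 lay above the epithelial range in BM and 1, Lum, below it (-2.57), with a median of 4.84. Tbx18, Pou3f4, Twist2, Prrx1 and Coch were undetected in GER and DC, while Lum, Dcn, Vim and Pdgfra were detected on all 5 epithelial arrays. All 7 endothelium markers tested and all 5 glia markers lay above the range, and of 6 bone and cartilage markers 5 lay above and 1 below. The part of these markers in the BM differences was not tested.

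**Figure D3:**
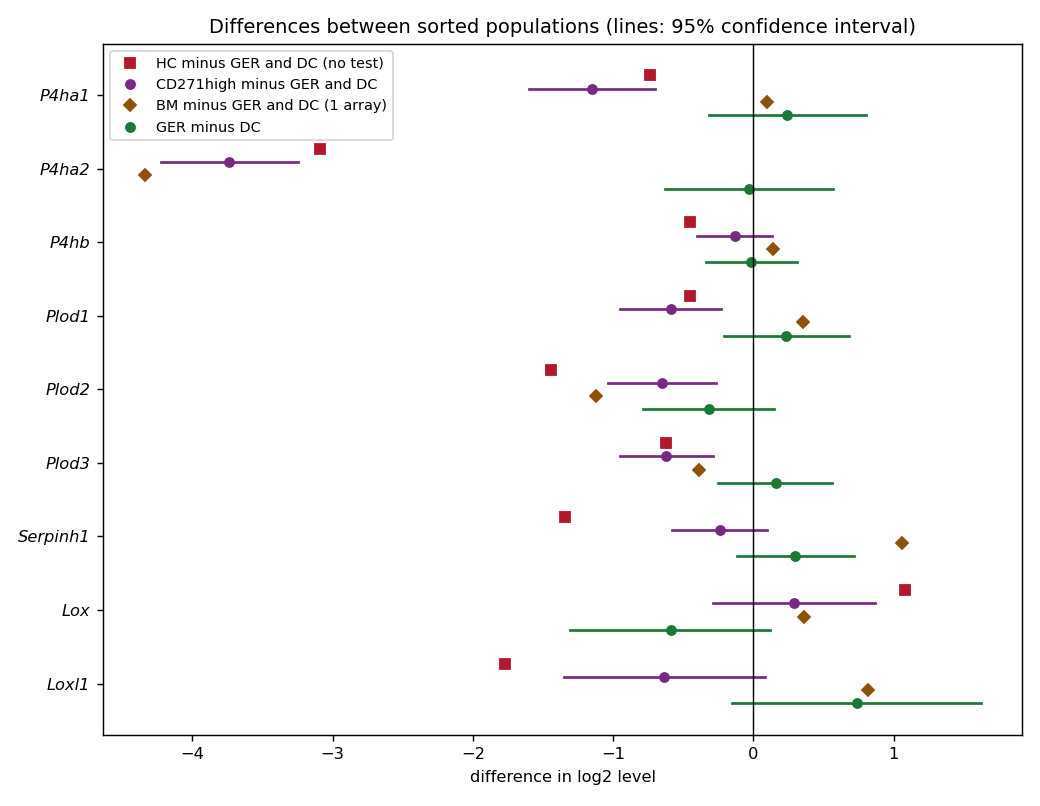
Log2 differences of the 9 detected genes: HC, CD271high and BM, each minus the mean of GER and DC, and GER minus DC. Horizontal lines are 95% confidence intervals for the tested comparisons, and the HC and BM points have none. P4ha2 is the farthest point to the left in HC (-3.09), CD271high (-3.74) and BM (-4.34) and lies at -0.03 in GER minus DC.

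Other genes of the pathway were read in lists. Of 13 further hydroxylation and folding genes tested, 2 were higher in CD271high, 5 lower and 6 did not pass (median -0.18). The shares over all genes were 15.3% higher and 18% lower. The third catalytic subunit, P4ha3, differed by -1.54 ± 0.37 (2.92-fold lower, adjusted p = 0.0071, detected on 2 of 3 CD271high arrays). The peptidyl-prolyl isomerase gene Fkbp14 differed by -0.99 (adjusted p = 0.0031) and the collagen galactosyltransferase gene Colgalt2 by -0.73 (adjusted p = 0.0064), while Fkbp7, a related isomerase gene, differed by 0.95 (adjusted p = 0.0091). In BM P4ha3 was undetected and at least 2.54-fold lower than in GER and DC, a bound set against the lowest signal among detected probes. In HC 12 of the 13 were lower with no overlap and 1 higher (median -1.08), beside 20.3% and 16.4% of all genes. In GER against DC 0 of the 13 passed, beside 4.16% of all genes, nor did any at an unadjusted p under 0.05.

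Of 8 processing genes tested, 3 were higher in CD271high and 3 lower (median 0.35), beside 15.3% and 18% of all genes. Tgm2, the crosslinking transglutaminase, was 4.58-fold higher (2.19 ± 0.22, adjusted p = 1.2e-05) and Pcolce, the enhancer of procollagen C-proteinase, 4.18-fold higher (2.06 ± 0.34, adjusted p = 0.00063, probe detected on 2 of the 5 epithelial arrays). Its relative Pcolce2 was 4.48-fold lower (-2.16 ± 0.14, adjusted p = 2.7e-07) and the procollagen N-proteinase Adamts2 3.67-fold lower (-1.88 ± 0.19, adjusted p = 1.4e-05). In GER against DC only Pcolce2 of the 8 passed (0.98 ± 0.17, adjusted p = 0.0067), beside 4.16% of all genes. In HC 5 of the 8 were lower with no overlap and 0 higher (median -1.22), beside 20.3% and 16.4% of all genes.

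The collagen chains themselves ran in both directions in CD271high. Of 10 fibrillar chains, 3 were higher and 2 lower (median 0.63, or 0.13 with undetected genes at their bound). Over all genes 15.3% were higher in CD271high and 18% lower. Col3a1, of type III collagen, differed by 3.15 ± 0.84 (adjusted p = 0.013, probe detected on 3 of the 5 epithelial arrays) and Col5a2, of type V, was at least 1.81-fold higher (adjusted p = 0.0013). Col24a1 passed (adjusted p = 0.00054) but was dim, detected on 2 of 3 CD271high arrays and on 0 of the 5 epithelial arrays, and has no fold. Col11a1, of the tectorial membrane and cartilage collagen XI, differed by -0.99 (adjusted p = 0.02, detected on 1 of 3 CD271high arrays and 3 of the 5 epithelial arrays). In GER it was at least 2.21-fold higher than in DC, where it was undetected (adjusted p = 0.044), the only fibrillar chain of the 10 to pass there. Of all genes 4.16% passed in GER against DC. In HC 2 of the 10 were lower with no overlap and 0 higher, beside 20.3% and 16.4% of all genes.

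Of 16 other chains, 6 were higher in CD271high and 5 lower (median 0.33), beside 15.3% and 18% of all genes. Col15a1 (2.76, adjusted p = 0.00045, probe detected on 2 of the 5 epithelial arrays), Col6a1 (1.74, adjusted p = 0.021, detected on 3 of 5) and the basement membrane chain Col4a1 (1.56, adjusted p = 0.002) were higher. Col9a3, of the fibril-associated collagen IX, was undetected in CD271high and at least 2.38-fold lower (adjusted p = 0.00049). In GER against DC, 0 of the 16 were higher and 3 lower in GER, beside 0.892% and 3.27% of all genes. Col4a4 (at least 1.75-fold, adjusted p = 0.017) and Col14a1 (at least 1.15-fold, adjusted p = 0.0053) were undetected in GER, and Col7a1, of the anchoring fibrils, differed by -1.42 ± 0.27 (adjusted p = 0.01).

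In BM 6 of the 10 fibrillar chains lay above the epithelial range by at least 1 and 1 below (median 2.72, or 2.23 at the bounds). Of the 16 other chains 7 lay above and 2 below. The shares over all genes were 12.5% above and 12.4% below. Col3a1 differed by 5.85, Col5a2 was at least 12.4-fold higher and Col24a1 at least 15.1-fold higher. Col6a1 differed by 5.16 and Col15a1 by 4.73. P4ha2 and P4ha3 were low on the array in which these 5 chains were high, while P4ha1 lay inside the epithelial range and Serpinh1 above it. Other genes of folding and processing ran in both directions in BM. Fkbp7 (2.41), Crtap (1.77) and Pcolce (4.38) lay above the range, and Colgalt2 (-1.75), Fkbp9 (-1.09) and Pcolce2 (-1.84) below it. With undetected genes at their bound, the BM median was -0.40 for the further hydroxylation and folding genes and -0.09 for the processing genes.

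**Figure D4:**
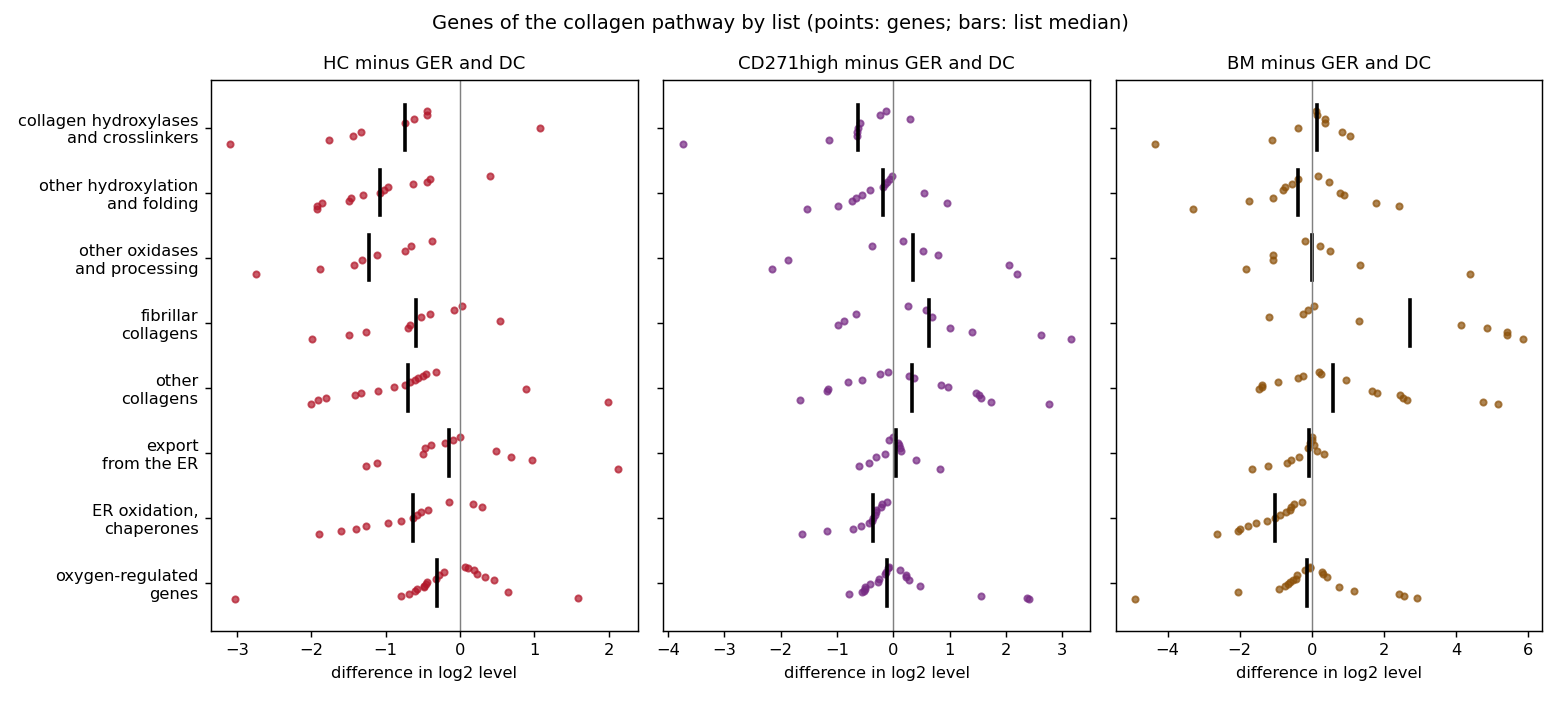
Log2 difference of each tested gene of 8 collagen pathway lists in HC, CD271high and BM, each minus the mean of GER and DC, with points for genes and a bar at the list median. Undetected genes are drawn at their fitted value, not at a bound. The fibrillar collagens have their median at 2.72 in BM, where the collagen hydroxylases and crosslinkers have theirs at 0.14.

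In CD271high 15.3% of all genes were higher and 18% lower. Of 13 genes of thiol oxidation and chaperones of the endoplasmic reticulum tested, 0 were higher in CD271high and 4 lower (median -0.36). They were Pdia5, a protein disulfide isomerase (-1.62 ± 0.18, adjusted p = 2.4e-05), the chaperone Hyou1 (-1.18, adjusted p = 0.0055), the thioredoxin-domain protein Txndc5 (-0.71, adjusted p = 0.0013) and Erp44, which was undetected in CD271high and has no fold (adjusted p = 0.043). In HC 10 of the 13 were lower with no overlap and 0 higher, beside 20.3% and 16.4% of all genes. In BM 12 lay below the epithelial range and 0 above, beside 33% and 31.8% of all genes, and 7 of the 12 by at least 1, beside 12.4%. In GER against DC 0 of the 13 passed, beside 4.16% of all genes. At an unadjusted p under 0.05, 1 was higher and 1 lower. Of 12 genes of collagen export from the endoplasmic reticulum, 1 was higher in CD271high and 1 lower. They were the transcription factor genes Creb3l1 (adjusted p = 0.035, undetected in GER and DC, no fold) and Creb3l2 (-0.44, adjusted p = 0.033). In GER against DC 0 of the 12 passed, with 1 at an unadjusted p under 0.05. In HC 2 were higher and 5 lower with no overlap, beside 16.4% and 20.3% of all genes.

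Of 20 oxygen-regulated genes tested, 3 were higher in CD271high, 5 lower and 12 did not pass (median -0.12). Of all genes 15.3% were higher and 18% lower. The glucose transporter Slc2a3 was undetected in GER and DC and at least 2.34-fold higher (adjusted p = 1e-04), Ndrg1 differed by 2.38 (adjusted p = 9.8e-05) and the carbonic anhydrase Car9 by 1.56 (adjusted p = 3.2e-05). Ddit4, a stress-induced inhibitor of mTOR signalling, differed by -0.79 (adjusted p = 0.0039). In GER against DC, 0 were higher and only the hexokinase Hk2 was lower (-1.16, adjusted p = 0.033). Over all genes the shares were 0.892% and 3.27%. In HC 1 was higher and 5 lower with no overlap, beside 16.4% and 20.3% of all genes. In BM 4 lay above the range by at least 1 and 2 below, beside 12.5% and 12.4%.

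Rab27a, Slc6a2, Ffar4, Prss3 and Podn had the levels most like those of P4ha2 over the 13 arrays (Pearson r of 0.981, 0.978, 0.972, 0.968 and 0.967). Rab27a, a small GTPase of vesicle transport, averaged 8.77 in HC, 8.21 in CD271high, 8.04 in BM, 10.87 in GER and 10.55 in DC. Podn, a small leucine-rich matrix proteoglycan, averaged 9.92 in HC, 8.68 in CD271high, 9 in BM, 12.81 in GER and 12.61 in DC. Both were lower in HC, CD271high and BM than in GER and DC, which follows from their choice by correlation with P4ha2.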

How the data were processed

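RNA was amplified, biotin-labelled and hybridised to Illumina arrays, per the labels' protocols. The deposited scanner table gives, per the file headers, a mean bead intensity, a detection p-value, a bead standard error and a bead number for each of 25697 probes. The deposited value table holds log2 values with the same distribution on every array, so the authors' values are quantile normalized. The sources used here do not name the software. The ranks of these values matched the scanner table on every array (lowest Spearman correlation 1).

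Levels were computed with limma 3.58.1 in R 4.3.3: normexp background correction from detection p-values, offset 16, quantile normalization and log2 (neqc). This compresses differences of dim probes. The 13192 probes that 2 or more arrays detected at p under 0.01 were kept, the brightest probe per gene was used, and 10088 genes were tested in 1 fit of all 13 arrays (8 residual degrees of freedom) with eBayes and Benjamini-Hochberg adjustment over all of them, two-sided, threshold 0.05. Names were updated through RefSeq (GRCm38.p6) for 24358 probes. A gene undetected in one population has a bound as its fold: the mean of the brighter population against the mean, per array, of the lowest signal among detected probes or the probe's own value if higher. The fit was tested on simulated data. Linear signals of marker lists were summed over their genes.

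Groups follow the titles. The description of GER replicate C names it as A, and the title was followed. HC has no test because P4ha2 was chosen from it, and BM has none because it has 1 array. Members and lists were chosen with earlier results of these data known. Named list genes were up to 4 per list with the largest difference among those past the threshold in a tested comparison. Arrays were not paired by replicate letter. Deviations of arrays with the same letter correlated at -0.126 to 0.183 (4 of 15 pairs over 0.1). Those with other letters correlated at -0.278 to 0.189 (8 of 38 pairs over 0.1). With so few arrays per population, these deviations cannot exclude a weak pairing. Alternatives covered normalization, background, filter, probe choice, weights, beadchip, the replicate letter, single populations to compare with, and each array left out.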

Additional observations from a re-analysis of the deposited data

How the results depend on the processing

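Of 531 values of single genes with a test and an alternative, the fit within beadchip 2 included, 516 kept their side of the threshold. Of these, 10 changed sign or came to 0, none of them called: P4ha2 and P4hb (4 each) and Plod3 (1) in GER minus DC, up to 0.25 for P4ha2 without DC replicate A, and Lox in CD271high against DC alone (-0.01). The members called lower in CD271high numbered 5, 4 to 5 with 1 array left out, 3 against DC alone and 1 within beadchip 2, where the counts over all genes were 336 higher and 139 lower (1540 and 1811 over all arrays). A beadchip 2 fit has 1 array on each side, so nothing is read from its calls. Median scaling gave 7 members lower and moved the median of all genes from -0.09 to -0.255. Counts over all genes in GER minus DC were 90 higher and 330 lower, 187 higher with array weights, and 18 to 120 higher and 141 to 375 lower with 1 array left out, with 56 higher without GER replicate B, 54 without GER replicate C, 33 (209 lower) without DC replicate A and 18 (141 lower) without DC replicate B, and no member called under any of 28 alternatives. BM had 1 member above the range by at least 1, but 0 with the authors' values, with no background correction, within beadchip 1 and against GER alone, 2 against DC alone, and 0 to 1 with 1 array left out (0 without GER replicate C or DC replicate B). It had 2 below, and 1 against GER alone. Serpinh1 lay close to that limit (0.91 to 1.20 under the alternatives). The members lower in HC without overlap numbered 6, 4 with median scaling and 8 within beadchip 2 or against GER alone. With the authors' values, and with no background correction, P4ha2 differed by -2.77 in HC and -3.64 in BM, and P4ha1 by -0.45 in HC and -0.67 in CD271high. The cause of these changes was not tested. With the replicate block 5 members were lower in CD271high and 0 passed in GER minus DC, and it changed no member's call. Loxl2, undetected on all arrays, limits what can be said of it.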
